A study of Solanum chacoense with 24 samples.

Results

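Chromosome 11 of the wild diploid potato relative Solanum chacoense carried 2158 of the 37740 gene models in the deposited count table. A model was counted as a member when the first chromosome entry of its record was chromosome 11. Of the table's models 29786 lay on the 12 chromosomes. The members ran from base 971 to base 38255156, in the coordinates of the table, whose genome build is not given in the sources used here. They were densest near the ends of the chromosome, with 512 models in the first 5 Mb and 410 between 30 and 35 Mb, against 74 between 15 and 20 Mb.

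Leaf RNA was sequenced from 8 lines, with 3 plants and so 3 libraries for each. The parents were USDA8380-1 (80-1), which resists the Colorado potato beetle, and the inbred line M6, which is susceptible to it. Their F2 generation was represented by the resistant individuals EE501F2_089, EE501F2_516 and EE501F2_641 and the susceptible individuals EE501F2_093, EE501F2_099 and EE501F2_500, each picked from an extreme of a replicated field trial. The plants of a line were raised in vitro from 1 individual and kept in a growth chamber at 20 °C with 16 h of light and 70% relative humidity, and leaflets of the fourth fully expanded leaf were taken 16 weeks after transplanting. Each F2 line is therefore 1 genotype by its labels, and p-values from plants measure the spread between plants of these lines, not between genotypes of a resistance class.

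The Colorado potato beetle feeds on the leaves of potato and its relatives, and resistance in wild species is a trait that breeders cross into potato. In an F2 generation each plant inherits a mosaic of the parental chromosomes, with a stretch carrying copies from 1 parent, from the other or from both. A gene whose leaf expression depends on the sequence at or near it tends to follow the copies carried there. A run of neighbouring genes at the level of 1 parent, or between the parents, is the pattern that such stretches leave in expression data.

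The libraries held 23610756 to 40825791 counts, except those of EE501F2_093 with 60713423 to 77078776. Chromosome 11 took 4.31 to 5.70% of the counts, and 1554 to 1716 of its models had a count in a given library. On this chromosome 251 models had 0 counts in every library, another 359 had too few counts to test, and 1548 were tested. The model identifiers are not paired with gene names in the sources used here, so neither functions nor leaf markers could be read from them. Values below are counts per 1000000 of the library's total (CPM) after TMM scaling, and in leaf samples of mixed cells a lower level cannot be told apart from fewer cells that express the model.

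The parents differed over the whole length of chromosome 11. Between 80-1 and M6, 637 of the 1548 tested models were called by edgeR at an adjusted p under 0.05, which is 41.1%, against 37.3% of all tested models. In 80-1, 302 models were higher (19.5%, against 18.6% of all tested models) and 335 were lower (21.6%, against 18.7%). The median log2 fold change of the tested chromosome 11 models was -0.003, a value that the scaling of the libraries draws toward 0. Before that scaling chromosome 11 took 4.53, 4.60 and 4.58% of the counts in the plants of 80-1 and 5.41, 5.23 and 5.32% in those of M6, without overlap. Of the called models 387 differed at least 2-fold and 222 at least 4-fold, and the median size of a called difference was 1.27 on the log2 scale.

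Calls between the parents did not gather in 1 stretch. In windows of 5 Mb the share of models called was lowest between 20 and 25 Mb, at 35.8%, and highest between 15 and 20 Mb, at 46.5%, where 43 models were tested. The first window, with 397 tested models, had 43.6% called and the last, with 246, had 45.9%. Models higher in 80-1 alternated with models higher in M6 along the chromosome. The longest run of consecutive tested models called in 1 direction was 6 models, all higher in 80-1, between bases 5567064 and 5634222. The longest run in the other direction was 5 models between bases 1064790 and 1085842.

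Several models were read in only 1 of the parents. Model g8614, at 4034338 to 4035178 on the minus strand of chromosome 11, had 10, 11.2 and 11.2 CPM in the 3 plants of 80-1 and 0 counts in M6. Its level was at least 380-fold higher in 80-1, taking 3 counts over the 3 libraries as the limit that a count of 0 allows (edgeR adjusted p = 1.77e-09). Model g12877, at 12037220 to 12041729, had 10.2, 4.82 and 9.89 CPM in 80-1 and 0 counts in M6. For this model the 80-1 level was at least 295-fold higher (edgeR adjusted p = 7.56e-05), and its 80-1 plants spread more widely than those of g8614.

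The opposite pattern was found near the far end of the chromosome. Model g1277, at 31807083 to 31812429, had 12, 8.05 and 5.18 CPM in M6 and 0 counts in 80-1, which was at least 202-fold lower (edgeR adjusted p = 6.14e-06). Model g35455, at 37732022 to 37735772, had 20.6, 19.3 and 15.6 CPM in M6 and 2 counts over the 3 libraries of 80-1. Its ratio of M6 to 80-1 was 677, with a 95% counting interval of 187 to 5590 (edgeR adjusted p = 3.21e-06). In none of these 4 models did the plants of the parents overlap. They are the largest differences in each direction by the rule for named models, so their size is a description of the extremes.

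These models separated the F2 lines in different ways. Model g8614 was read in every plant of 5 F2 lines, at 12.3 to 17.7 CPM in EE501F2_089, 6.74 to 8.43 CPM in EE501F2_516, 5.04 to 6.82 CPM in EE501F2_093 and 24.9 to 31.1 CPM in EE501F2_500. In EE501F2_641 its plants had 4.46, 9.11 and 17.1 CPM. In EE501F2_099 it had 1 count over 3 libraries, like M6. All 3 plants of EE501F2_500 lay above all 3 plants of 80-1, and those of EE501F2_093 and EE501F2_516 lay between the parents without overlapping either.

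Model g35455, at the other end, gave another order. Its levels were 18.7 to 24.2 CPM in EE501F2_089, 37.3 to 45.7 CPM in EE501F2_516, 21.3 to 25.5 CPM in EE501F2_093, 11.6 to 14.0 CPM in EE501F2_099 and 20.3 to 25.5 CPM in EE501F2_500. Only EE501F2_641 held plants at or near the level of 80-1, with 0, 6.16 and 0.335 CPM in its 3 plants. Model g12877, between those 2 positions, was high in EE501F2_089 with 10.5, 4.85 and 2.6 CPM and in 2 plants of EE501F2_641 with 4.74 and 6.29 CPM. Its other plant of EE501F2_641 had 0.0465 CPM, and EE501F2_516 and EE501F2_500 had at most 0.0742 CPM in any plant.

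**Figure D1:**
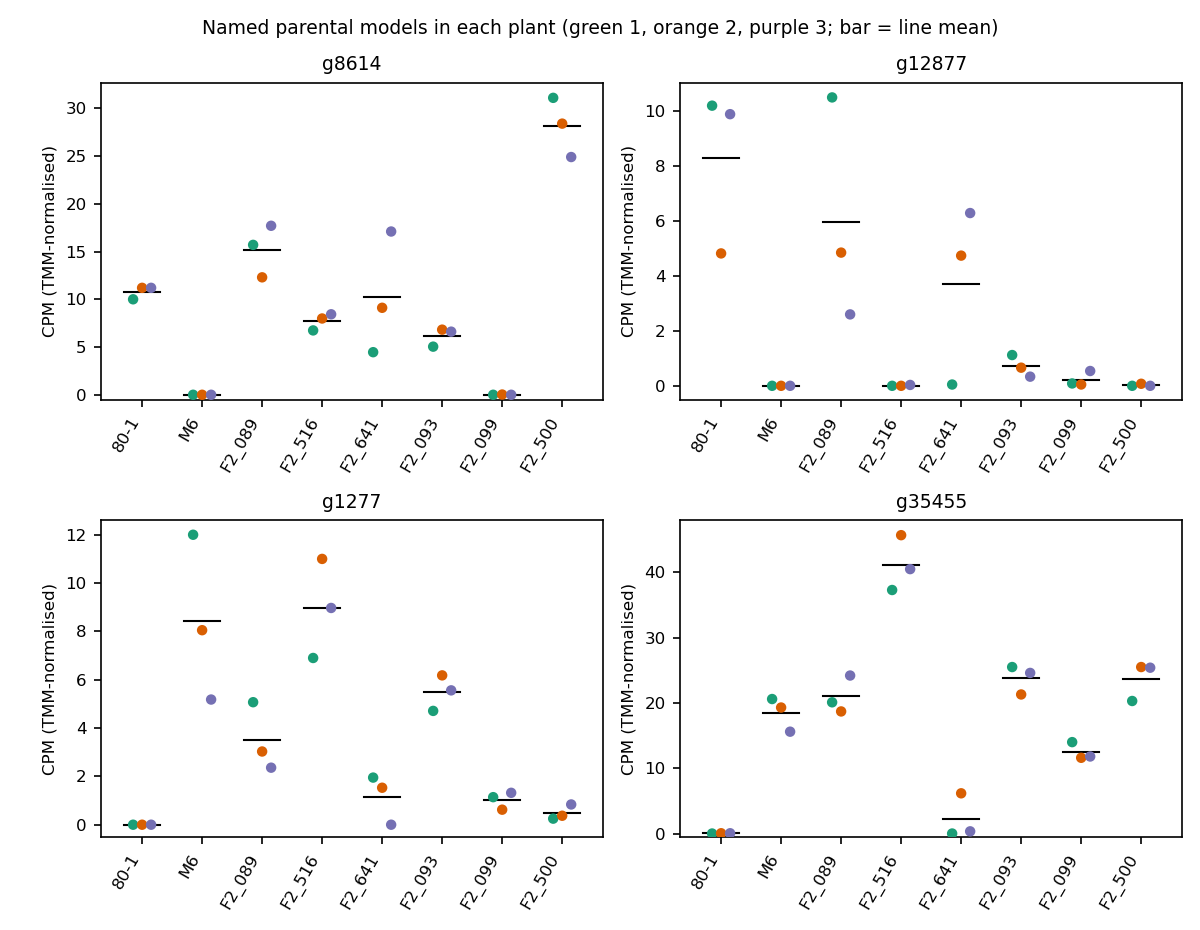
CPM (vertical axis, linear, TMM-normalised) of the 4 models named for the parental comparison, in each of the 24 libraries by line. Points are plants and bars are line means. Model g8614 had 0 counts in M6 and 1 count in EE501F2_099, and the plants of EE501F2_641 spread from 4.46 to 17.1 CPM in it.

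To place each F2 line between the parents, an index was computed at each of the 222 models that differed at least 4-fold. The index is the CPM of a line minus the mean CPM of M6, divided by the mean CPM of 80-1 minus that of M6, so that 0 is the M6 level, 1 the 80-1 level and 0.5 the midpoint. By direction, 80-1 was the higher parent for 109 of these models and M6 for 113. The index was smoothed as a running median of 11 neighbouring models. Smoothed values up to 0.25 were taken as the M6 level, values from 0.75 as the 80-1 level and those between as the middle, and a block is a run of at least 5 models in 1 of these classes. Parental values enter every index, so all lines share the 6 parental libraries, and no test was made on the index.

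Over the whole chromosome EE501F2_089 lay nearest to 80-1 and EE501F2_099 nearest to M6. The median index was 0.769 in EE501F2_089, and the medians of its plants were 0.796, 0.766 and 0.720. It was 0.302 in EE501F2_516, with an SD of 0.020 over its 3 plants, and 0.294 in EE501F2_099, with an SD of 0.043. Those 2 lines differed by less than the spread between plants of EE501F2_099. EE501F2_093 had a median of 0.367 (SD 0.016, n = 3) and EE501F2_500 of 0.420 (SD 0.075, n = 3). EE501F2_641 had a median of 0.631, but its plants had 0.532, 0.590 and 0.873 (SD 0.182), the widest spread of the 6 lines.

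The median hides opposite ends of the chromosome. The shares of the index models in blocks at the M6 level, in the middle and at the 80-1 level were 3.15, 38.7 and 49.5% in EE501F2_089, and 40.5, 40.5 and 7.21% in EE501F2_516. They were 36.5, 61.3 and 0% in EE501F2_093, and 44.6, 48.2 and 2.25% in EE501F2_099. EE501F2_500 was split between the parents, with 36.9% at the M6 level, 21.6% in the middle and 35.1% at the 80-1 level. EE501F2_641, as a mean of plants that differ, had no block at the M6 level, 70.7% in the middle and 13.1% at the 80-1 level. Its plants taken singly had 17.6, 2.25 and 2.70% at the M6 level, and the mean without plant 3 had 7.9%.

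**Figure D2:**
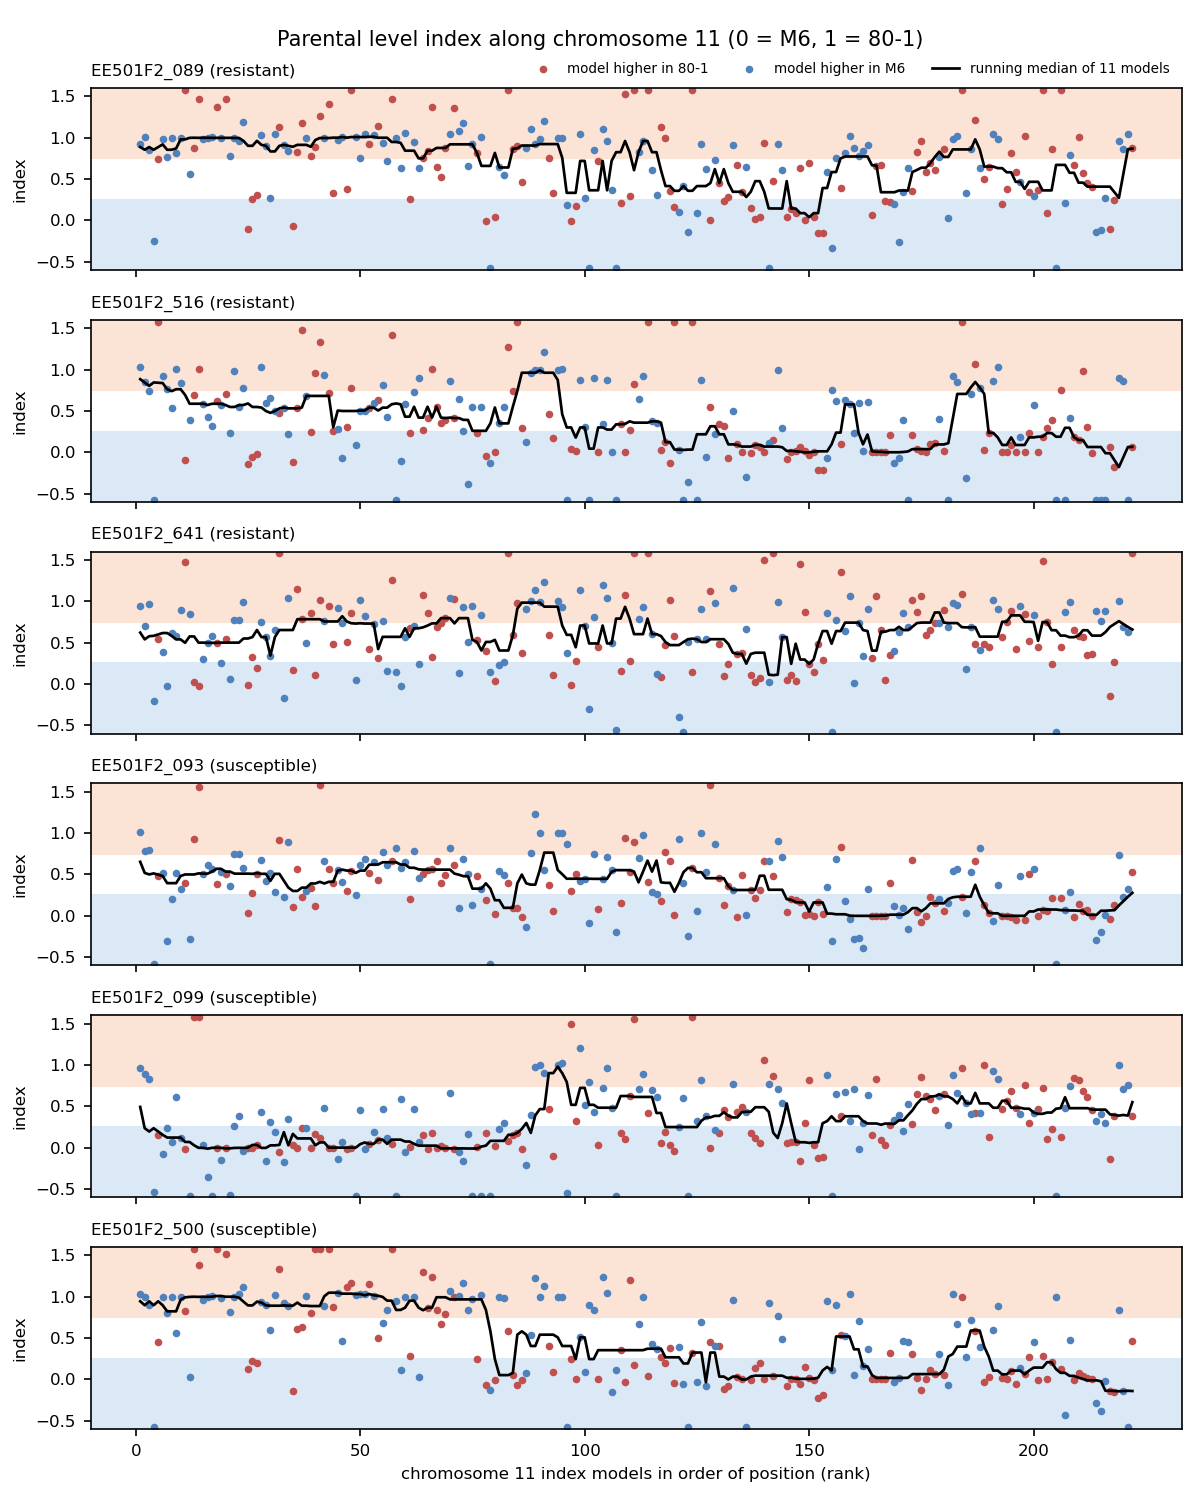
Parental level index (vertical axis, no unit, 0 for M6 and 1 for 80-1) of the 222 chromosome 11 models in order of position (horizontal axis, rank) in each F2 line. Points are models, coloured by the parent in which they were higher and drawn at the edge of the panel where they lie beyond it, the line is the running median of 11 models, and the shaded bands are the M6 and 80-1 levels. The lines EE501F2_089 and EE501F2_500 stay near 1 over the near end, on the left, EE501F2_099 stays near 0 there, and EE501F2_516 and EE501F2_093 lie between.

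EE501F2_089, a resistant line, held the 80-1 level over the near end of the chromosome. Its first block ran from 0.14 to 6.57 Mb with 76 index models, a median index of 0.956 and smoothed values from 0.751 to 1.01. A further block at that level lay from 8.03 to 9.02 Mb with 12 models and a median of 0.915. From 20.34 to 28.69 Mb the line was in the middle, with 24 models and a median of 0.387. Its only block at the M6 level ran from 31.07 to 31.65 Mb with 7 models. The share of index models at that level depended on the libraries. It was 5.0 to 8.9% in 23 of 24 recomputations that each left out 1 library, and 2.5% without plant 3 of EE501F2_641. The stretch was not particular to this line. EE501F2_099 had a block at the M6 level from 31.08 to 31.65 Mb, and wider blocks of EE501F2_516, EE501F2_093 and EE501F2_500 at that level covered it. Beyond that the line went between the 80-1 level, from 34.60 to 35.58 Mb, and the middle, from 35.75 to 38.06 Mb with 32 models and a median of 0.484.

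Model g15174, at 1084665 to 1085842 in the first of these blocks, shows the level in each plant. It had 14.9, 11.3 and 11 CPM in M6 and 0.193, 0 and 0.168 CPM in 80-1. EE501F2_089 had 0.0416, 0 and 0.0666 CPM, or 3 counts in all, and M6 exceeded it by a ratio of 337 with a 95% counting interval of 115 to 1630 (edgeR adjusted p = 2.21e-08). EE501F2_500 was as low, with 0.0358 CPM in 1 plant and 0 in the others, whereas EE501F2_099 had 24.6, 15.6 and 18.7 CPM, above every plant of M6. EE501F2_516 and EE501F2_093 lay between the parents, at 6.99 to 9.78 and 4.90 to 6.06 CPM.

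EE501F2_516, also resistant, was mostly in the middle up to 20.34 Mb and mostly at the M6 level past it. It started at the 80-1 level, from 0.14 to 0.91 Mb with 7 models and a median of 0.844. Its largest block, in the middle, ran from 0.96 to 8.06 Mb with 75 models and a median of 0.539. It was followed by the 80-1 level from 8.06 to 9.02 Mb, with 9 models and a median of 0.962, and by the middle from 12.04 to 20.34 Mb, with 15 models and a median of 0.343. Blocks at the M6 level covered 21.03 to 25.37 Mb, 26.13 to 32.20 Mb, 32.50 to 34.64 Mb, 35.80 to 36.99 Mb and 37.45 to 38.17 Mb. The largest of them, from 26.13 to 32.20 Mb, had 28 models and a median of 0.039. Model g1387, at 32892482 to 32893855 within the third of them, had 5.80, 6.59 and 7 CPM in 80-1 and 0 counts in both M6 and EE501F2_516, which was at least 211-fold below 80-1 (edgeR adjusted p = 1.20e-04).

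EE501F2_093, a susceptible line, had the fewest blocks, at 6. It lay in the middle from 0.14 to 7.58 Mb, with 79 models and a median of 0.513. A short block at the M6 level followed from 7.70 to 8.03 Mb, in 5 models whose own median was 0.393. The line was in the middle again from 8.05 to 8.30 Mb and from 9.01 to 30.48 Mb, the latter with 51 models and a median of 0.485. It then lay at the M6 level from 30.63 to 35.27 Mb, with 42 models and a median of 0.074, and from 35.58 to 38.09 Mb, with 34 models and a median of 0.063. No block was at the 80-1 level, though the running median was 0.764 over 3 models from 8.35 to 8.93 Mb. Model g1387 was at 0 counts in this line too, at least 411-fold below 80-1 (edgeR adjusted p = 2.28e-04), and g1277, the M6 model in the same region, had 4.71, 6.18 and 5.56 CPM, within the range of the M6 plants in 2 of 3 plants.

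EE501F2_099, susceptible, was the only F2 line at the M6 level over the near end. That block ran from 0.19 to 8.06 Mb with 85 models and a median index of 0.029. Model g8614 lies in it, and with 1 count in this line the ratio of 80-1 to EE501F2_099 was 1270, with a 95% counting interval of 227 to 50200 (edgeR adjusted p = 2.32e-09). The running median then reached the 80-1 level from 8.43 to 9.11 Mb, in 5 models whose own median was 0.466. From 9.37 to 20.34 Mb the line was in the middle, with 21 models and a median of 0.613, and from 25.31 to 29.53 Mb again, with 16. Short blocks at the M6 level lay from 21.03 to 24.89 Mb, with 8 models, and from 31.08 to 31.65 Mb, with 6. Over the far end, from 31.65 to 38.17 Mb, it was in the middle in 1 block of 70 models with a median of 0.471. In that block g13581, at 34634610 to 34635972, had 11.6, 8.04 and 11.2 CPM, against 15.9, 14.2 and 16.6 CPM in 80-1 and 0.318, 0.513 and 0.283 CPM in M6, 27.0-fold higher than M6 (95% counting interval 19.7 to 38.0, edgeR adjusted p = 1.26e-08). The plants of this line lay below all those of 80-1 and above all those of M6.

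EE501F2_500, susceptible, changed from the level of 1 parent to that of the other. From 0.14 to 7.24 Mb it was at the 80-1 level, with 78 models and a median of 0.978. A short block at the M6 level lay from 7.70 to 8.03 Mb, in 5 models whose own median was 0.582. The line was in the middle from 8.05 to 9.37 Mb, 12.04 to 21.73 Mb, 31.86 to 32.50 Mb and 34.64 to 35.81 Mb. It lay at the M6 level from 26.13 to 31.86 Mb, with 26 models and a median of 0.015, from 32.53 to 34.64 Mb, with 19 models, and from 35.98 to 38.17 Mb, with 32 models and a median of 0.032. Model g1262, at 31635532 to 31636935, had 23.9, 16.0 and 24.9 CPM in 80-1, 0, 0.103 and 0 CPM in M6, and 0 counts in EE501F2_500, which was at least 630-fold below 80-1 (edgeR adjusted p = 2.23e-05).

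The 3 plants of EE501F2_641, a resistant line, did not share 1 profile. Plant 3 was at the 80-1 level over 69.8% of the index models, in blocks from 2.68 to 6.57 Mb, 7.24 to 9.02 Mb, 9.63 to 19.68 Mb, 32.20 to 37.13 Mb and others. Plant 1 was at that level over 13.5% and plant 2 over 17.1%. Plant 1 lay at the M6 level from 19.64 to 25.37 Mb, with 13 models and a median of 0.069, and from 26.89 to 31.64 Mb, with 20 models and a median of 0.073. Plant 2 lay in the middle from 34.56 to 36.99 Mb, with 31 models and a median of 0.289, where plant 3 was at the 80-1 level. In windows of 5 Mb the median index of the plants of this line ranged over more than 0.4 in 5 of 8 windows, with a median range of 0.541.

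The other lines did not show such a spread. The same range was over 0.4 in 1 of 8 windows in EE501F2_089 and in EE501F2_516 and in none in the other 3 lines, and its median was 0.071 to 0.140. Values given for EE501F2_641 as a line are therefore means of plants that differ. Whether the 3 plants share a genotype was not tested. The fit across all 24 libraries includes their spread: without plant 1 of EE501F2_641 the number of calls between the parents rose from 637 to 706.

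**Figure D3:**
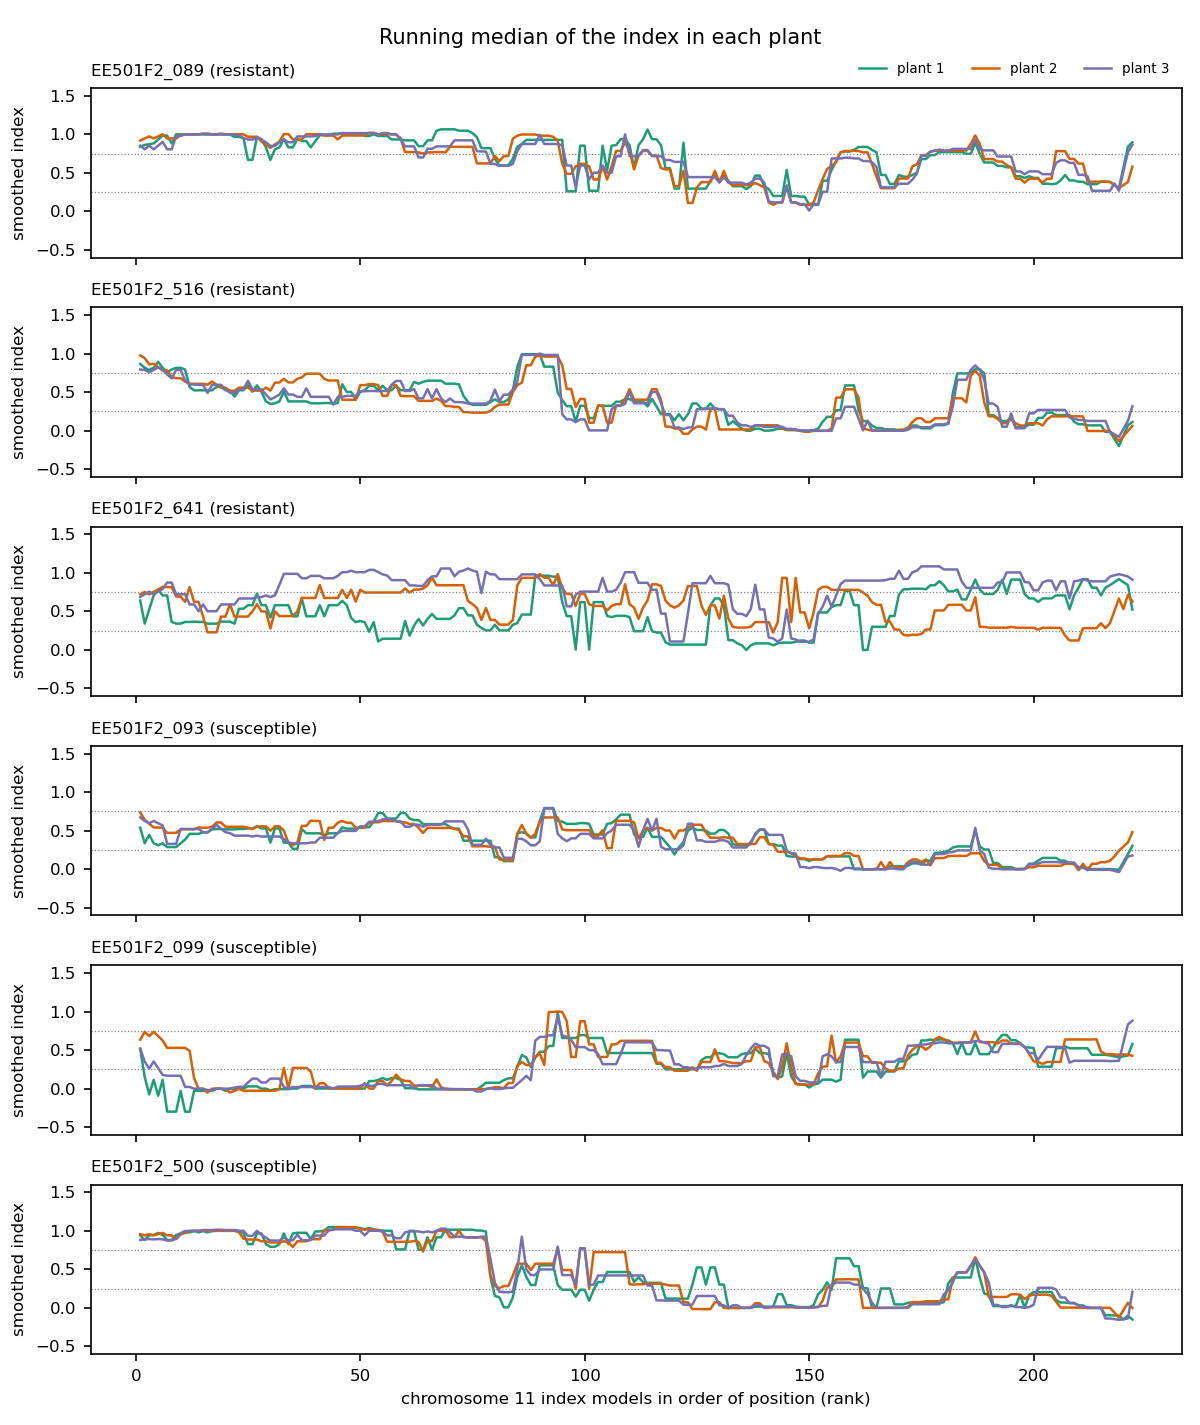
Running median of the index over 11 models (vertical axis, no unit, 0 for M6 and 1 for 80-1) in each of the 3 plants of each F2 line, over the 222 chromosome 11 models in order of position (horizontal axis, rank). Dotted lines mark 0.25 and 0.75. The plants of 5 lines follow each other, and those of EE501F2_641 separate over most of the chromosome.

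The classes of resistance overlapped along the chromosome. In the first 5 Mb the resistant lines had median indices from 0.571 to 0.980 and the susceptible lines from 0.028 to 0.993. Between 30 and 35 Mb the resistant lines ran from 0.029 to 0.689 and the susceptible lines from 0.086 to 0.421. The ranges of the classes overlapped in all 8 windows, and in no window were all 3 resistant lines on 1 side of all 3 susceptible lines.

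Near 8.3 and 9.0 Mb some models were at the 80-1 level in every F2 line, also where neighbouring models were not. Model g29274, at 8297317 to 8300311, had 29.4, 30.5 and 30.8 CPM in M6 and 0.309, 0.127 and 0.126 CPM in 80-1. Every one of the 18 F2 plants had at most 0.713 CPM. EE501F2_089, EE501F2_516 and EE501F2_641 had blocks at the 80-1 level around this model. EE501F2_099, at 0.284, 0.359 and 0.294 CPM, had an index of -0.204 at the index model that starts at 8260174 and of -0.097 at the one that starts at 8926387. The latter lies inside the stretch from 8.43 to 9.11 Mb where the running median of this line was at the 80-1 level. M6 exceeded EE501F2_099 by 96.3-fold (95% counting interval 69.7 to 137, edgeR adjusted p = 1.26e-08) and EE501F2_641, whose plants had 0.139, 0.654 and 0.0838 CPM, by 113-fold (70.7 to 195, edgeR adjusted p = 1.04e-08). No F2 plant approached the M6 level of this model.

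Across the 222 index models, 6 had an index of at least 0.75 in all 6 F2 lines, and they did so in all 18 plants as well. All 6 were higher in M6, and 4 of them lay between 5 and 10 Mb. Of these, g29273, g29274 and g25041 lay in the blocks at the 80-1 level that EE501F2_089, EE501F2_516 and EE501F2_641 had there. Those blocks thus rest in part on models whose index was at least 0.75 in all 6 F2 lines. Such models could still differ between lines. Model g29273 had 0 counts in EE501F2_093 and EE501F2_500 and 205 in EE501F2_099, against 908 in M6. Another 13 models had an index of at most 0.25 in all 6 lines, 10 of them with 80-1 as the higher parent and 3 with M6, and 6 of the 13 kept that level in all 18 plants. The 6 models are a description, since the members were sorted by these values.

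The direction of the parental difference went with the index. In every F2 line the models higher in M6 had a higher median index than those higher in 80-1. The medians were 0.859 against 0.648 in EE501F2_089, 0.532 against 0.177 in EE501F2_516, 0.708 against 0.522 in EE501F2_641, 0.499 against 0.224 in EE501F2_093, 0.392 against 0.166 in EE501F2_099 and 0.816 against 0.128 in EE501F2_500. For models higher in M6 a larger index means a lower CPM. The gap between the kinds of model thus ran toward the parent with the lower CPM. Measured from the midpoint of 0.5 this was not true of both kinds in every line. Models higher in 80-1 lay above it in EE501F2_089 and EE501F2_641, and models higher in M6 lay below it in EE501F2_093 and EE501F2_099. The index models were picked by the same parental libraries that set 0 and 1 of the index. What that choice adds to the gap was not tested. In the first 8 Mb the medians were 0.976 against 0.871 in EE501F2_089, 0.990 against 0.837 in EE501F2_500 and 0.098 against 0.013 in EE501F2_099. Past 30 Mb the medians were 0.457 against 0.018 in EE501F2_500 and 0.407 against 0.030 in EE501F2_516. In the first 8 Mb 48 index models were higher in M6 and 35 in 80-1, and past 30 Mb 35 and 46. The gap of EE501F2_500 over the whole chromosome thus mixes direction with position.

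Models with smaller parental differences, which did not draw the blocks, were compared with them. These were the 415 models called between the parents at less than 4-fold. In the first block of EE501F2_089 the 153 such models had a median index of 0.738, and in the first block of EE501F2_500 the 158 such models had 0.755. In the block of EE501F2_099 at the M6 level, 167 such models had a median of 0.225. In the blocks in the middle over the same region, 163 models had 0.473 in EE501F2_093 and 159 had 0.356 in EE501F2_516, against 0.513 and 0.539 in the models that drew the blocks. Over this near end the models with smaller differences lay nearer to the midpoint in the blocks at a parental level. In the middle block of EE501F2_516 they lay farther from it. In that of EE501F2_093 the plants had 0.526, 0.439 and 0.479, on both sides of the midpoint.

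Elsewhere the models with smaller differences lay close to some blocks and departed from others. In EE501F2_093 from 9.01 to 30.48 Mb the median was 0.505 over 87 models, against 0.485 in the models that drew the block. In EE501F2_641 from 34.63 to 36.04 Mb it was 0.687 over 38 models, against 0.688. In EE501F2_500 from 32.53 to 34.64 Mb it was 0.118 over 44 models, against 0.048. Examples of departures follow. In EE501F2_089 from 8.03 to 9.02 Mb the median was 0.156 over 8 models, near M6, against 0.915 in the models that drew the block. In EE501F2_093 from 30.63 to 35.27 Mb the median was 0.259 over 78 models, against 0.074 in the models that drew the block. In EE501F2_516 from 32.50 to 34.64 Mb it was -0.272 over 44 models, on the far side of M6. In EE501F2_500 from 35.98 to 38.17 Mb it was 0.425 over 46 models, against 0.032. In EE501F2_099 from 31.65 to 38.17 Mb it was 0.311 over 136 models, against 0.471. The contrasts with both parents share the libraries of the line, and no test was made between these medians.

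Models read in 1 parent alone could be followed in each plant without a ratio. A model was put in this group when the other parent had at most 3 counts over its 3 libraries and the parent itself a mean of at least 1 CPM, and was taken as read in a plant or line at 0.2 CPM or more. There were 24 such models in 80-1. By their line means EE501F2_089 read 23 of them, EE501F2_641 24, EE501F2_099 17, EE501F2_093 15, EE501F2_516 13 and EE501F2_500 10. No plant of EE501F2_641 read all of them, since its plants read 17, 22 and 22. In the first 8 Mb there were 5, and every plant of 5 lines read all 5 while no plant of EE501F2_099 read any.

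From 30 Mb to the end there were 11 models read in 80-1 alone. EE501F2_089 read 10 of them, EE501F2_641 11 and EE501F2_099 10, whereas EE501F2_516 read 4, EE501F2_093 3 and EE501F2_500 2. The plants of EE501F2_641 read 7, 9 and 10. Of 12 models read in M6 alone the plants of EE501F2_641 read 6, 11 and 4, and those of the other lines 9 to 12, while by line means EE501F2_641 read 11 and the other lines 10 to 12. In the first 8 Mb there were 2 of these, and no plant of EE501F2_089 or EE501F2_500 read either. Every plant of EE501F2_093 and EE501F2_099 read both, whereas the plants of EE501F2_516 read 1, 1 and 2 and those of EE501F2_641 read 1, 2 and 1.

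**Figure D4:**
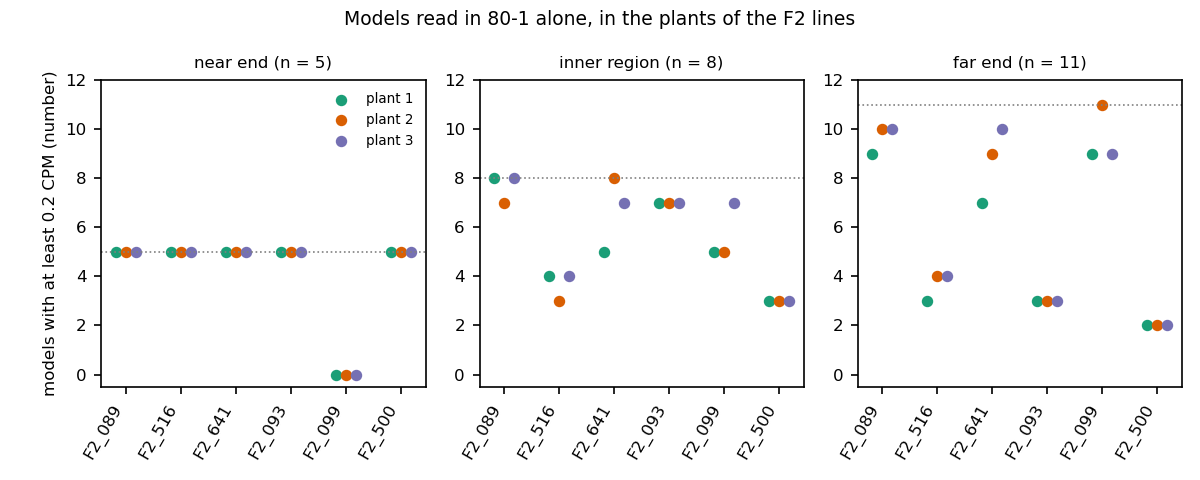
Number of models read in 80-1 alone (vertical axis) that each plant of the F2 lines read at 0.2 CPM or more, in the first 8 Mb (near end, 5 models), from 8 to 30 Mb (inner region, 8 models) and from 30 Mb to the end (far end, 11 models). Points are plants and the dotted line is the number of models. EE501F2_099 read none of the 5 at the near end and 9 to 11 of the 11 at the far end, and EE501F2_500 read all 5 at the near end and 2 at the far end.

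The number of models that differed from each parent was set beside the share over all tested models. EE501F2_093 differed from M6 in 284 chromosome 11 models (18.3%, against 21.3% of all tested models) and from 80-1 in 403 (26.0%, against 21.7%). The count against M6 depended on the libraries fitted: it was 177 without plant 1 of EE501F2_093, 188 without plant 1 of M6, 426 without the line EE501F2_641 and 434 with only the 6 libraries compared. EE501F2_099 differed from M6 in 300 models (19.4%, against 20.9%) and from 80-1 in 555 (35.9%, against 37.1%), and the count against M6 was 199 without plant 2 of EE501F2_099. EE501F2_500 differed from M6 in 525 (33.9%, against 33.3%) and from 80-1 in 608 (39.3%, against 38.7%). In the susceptible lines the share of chromosome 11 models called thus differed from the share of all models by at most a few percentage points, most in EE501F2_093 against 80-1.

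Against M6 the counts of the resistant lines, at 643 to 683, lay above those of the susceptible lines, at 284 to 525, while against 80-1 the classes overlapped. The same order against M6 held over all tested models, at 39.7 to 48.7% in the resistant lines and 20.9 to 33.3% in the susceptible lines. It is thus not particular to chromosome 11. EE501F2_089 differed from M6 in 643 models (41.5%, against 39.7% of all tested models) and from 80-1 in 549 (35.5%, against 41.1%). EE501F2_516 differed from M6 in 683 (44.1%, against 48.7%) and from 80-1 in 863 (55.7%, against 54.9%). EE501F2_641 differed from M6 in 677 (43.7%, against 40.6%) and from 80-1 in 451 (29.1%, against 32.8%). For EE501F2_641 the counts fell to 256 against M6 and 160 against 80-1 when only the 6 libraries compared entered the fit, so that its own plants set the spread. That 256 lies among the counts of the susceptible lines against M6 in the same kind of fit, at 247 to 535, and the classes then overlapped. All 12 contrasts share parental libraries, and their counts are given side by side only.

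**Figure D5:**
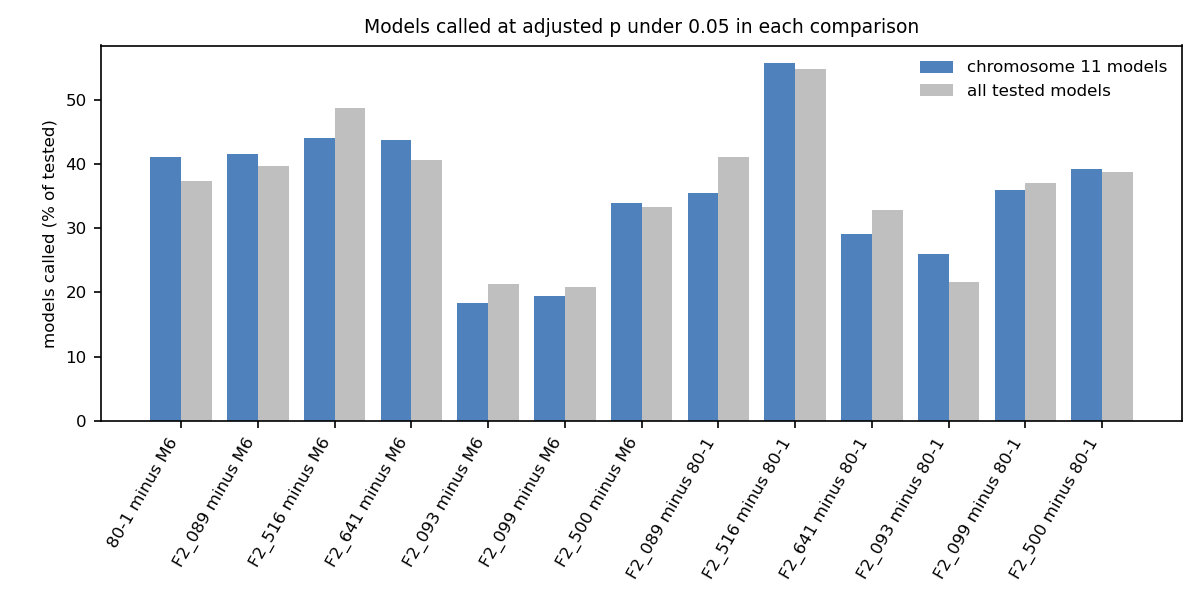
Percentage of tested models called at an adjusted p under 0.05 by edgeR (vertical axis, from 0) in the parental contrast and in each F2 line against each parent, for the 1548 chromosome 11 models and for all 21028 tested models. The bars for chromosome 11 lie close to those for all models, and are lower by the most in EE501F2_089 against 80-1 (35.5 against 41.1%).

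Some models lay outside both parents. A model was counted as above or below both when a line was called against both with the same sign. In at least 1 F2 line 315 chromosome 11 models were above both parents (20.3%, against 24.8% of all tested models) and 357 below both (23.1%, against 25.3%). EE501F2_516 had the most, with 186 above (12%, against 14.4% of all tested models) and 222 below (14.3%, against 16.7%). EE501F2_093 had the fewest, with 26 above (1.68%, against 2.36%) and 14 below (0.904%, against 1.68%). These shares were below those over all tested models. EE501F2_500 went the other way for models below both parents, with 126 (8.14%, against 7.45%). Of the models above both parents 190 were so in 1 line only, and none in all 6. Of those below, 186 were so in 1 line only and 1 in all 6.

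The extremes of these were models read weakly or not at all on 1 side. Model g1378, at 32823169 to 32824357, had 23.1, 68.2 and 17.1 CPM in EE501F2_516, against 0.0387, 0.549 and 1.21 CPM in 80-1 and 0.892, 0.923 and 0.368 CPM in M6. It was 48.7-fold above M6 (edgeR adjusted p = 2.20e-05) and 60.6-fold above 80-1 (edgeR adjusted p = 1.53e-05). Model g37563, at 9721316 to 9723067, had 7.92, 5.91 and 11.1 CPM in 80-1, 4.97, 9.23 and 8.57 CPM in M6 and 0 counts in EE501F2_500. That line was at least 225-fold below M6 (edgeR adjusted p = 2.17e-04) and at least 242-fold below 80-1 (edgeR adjusted p = 1.53e-04). Nearly no counts of the model were found in EE501F2_516, with 1 over its 3 libraries, and in EE501F2_093, with 8. EE501F2_089 and EE501F2_099 averaged 1.38 and 2.44 CPM. In EE501F2_641 its plants had 0, 5.89 and 12.7 CPM, so that 1 plant had 0 counts and the others lay at or just above the parental levels.

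Model g12337, at 36976365 to 36978240, was named for the rises against 80-1 and shows how far plants of 1 line can lie apart. It had 0.155, 0.127 and 0.0419 CPM in 80-1 and 0.701, 9.49 and 9.28 CPM in M6. EE501F2_089 had 98.8, 72.4 and 59.0 CPM, above every parental plant, and EE501F2_641 had 46.7, 304 and 13.2 CPM. The level in EE501F2_500 was at most 0.148 CPM, like 80-1. Model g10345, at 5537397 to 5542371, went the other way, with 11.2, 10.3 and 11.6 CPM in 80-1, 7.61, 6.31 and 5.32 CPM in M6 and at most 0.416 CPM in any plant of EE501F2_089 or EE501F2_500.

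The comparison of resistance classes asks which models separate the 3 resistant from the 3 susceptible F2 lines. With counts summed over the plants of each line, edgeR called none of the 1569 chromosome 11 models tested, against 0.0142% of all models in that fit. At an unadjusted p under 0.05 there were 95 (6.05%, against 7.4% of all models), and DESeq2 called 35 on the same sums (2.23%, against 2.55%). When the same sign and a call were required in all 9 pairings of resistant with susceptible lines, 13 chromosome 11 models remained (0.840%, against 1.26% of all tested models), 8 higher and 5 lower in the resistant lines. This count was 8 without plant 2 of EE501F2_089, 8 without plant 1 of EE501F2_093 and 22 without plant 1 of EE501F2_641. Without the line EE501F2_641, which leaves 6 pairs, it was 61. The error in these calls is that between plants, so they describe the 6 lines and not the classes in general.

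The parents, 80-1 resistant and M6 susceptible, differed in the same direction as the classes in 5 of them, in the opposite direction in 2 and were not called in 6. Model g18987, at 21725127 to 21726020, averaged 122 ± 121 CPM (SD, n = 3 line means) over the resistant lines, against 2.95 ± 3.88 CPM over the susceptible ones. It was higher in 80-1 as well, with 96.8, 148 and 159 CPM against 3.34, 7.64 and 8.80 CPM in M6 (edgeR adjusted p = 2.22e-04). Its plants had 20.6 to 32.3 CPM in EE501F2_089, 111 to 364 CPM in EE501F2_516 and 11.5, 211 and 20.7 CPM in EE501F2_641, against at most 9.78 CPM in a susceptible plant. In the fit to line sums its log2 fold change was 5.31 with an SE of 1.40 and its adjusted p was 0.393 by edgeR. DESeq2 on the same sums called all 4 models named for the classes, this one included.

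The other 3 named models separated the classes by smaller ratios. Model g12583, at 31010057 to 31014830, averaged 43.2 ± 3.05 CPM over resistant lines, against 18.2 ± 4.73 CPM over susceptible lines (SD, n = 3 line means), and its plants ran from 26.9 to 58 and from 12.9 to 24.6 CPM. In the fit to line sums its adjusted p was 0.265 by edgeR. Model g15641, at 25847006 to 25856574, averaged 15 ± 7.76 CPM over resistant and 40.6 ± 5.99 CPM over susceptible lines, with plants from 7.09 to 26.1 and from 26.7 to 51.2 CPM and an adjusted p of 0.414 by edgeR. Model g15190, at 1198839 to 1202904, averaged 9.71 ± 2.95 CPM over resistant and 21.9 ± 2.97 CPM over susceptible lines, with plants from 5.97 to 13.7 and from 17.4 to 25.7 CPM and an adjusted p of 0.348 by edgeR. The plants of the classes did not overlap in these 3 models. In none of them was the resistant parent on the side of the resistant lines by an edgeR call, and in g15190 80-1 was higher than M6, at 38.5 against 26.0 CPM. In g15641 80-1 and M6 averaged 56.3 and 52.2 CPM. Both parents thus lay above both class means in g15190 and g15641. In g12583 80-1 and M6 averaged 20.6 and 15.3 CPM, nearer to the susceptible lines.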

How the data were processed

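Raw counts for every gene model in 24 libraries (3 plants of each of 8 lines) stood in a table that the authors deposited, with model lengths in bases as another column of the deposited table that entered no test. Trimmomatic 0.35, STAR 2.6.0, Subread, featureCounts 1.5.3 and DESeq2 were used per the submitters' processing notes, with no role or order given. No build, annotation, strand setting or rule for multi-mapping reads is given in the sources used here, so that reads of near-identical copies or antisense models could be shared. All 24 count columns were matched to libraries. The 7954 models on unplaced sequence had 0 counts everywhere.

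Tests were run with edgeR 4.0.16 in R 4.3.3. Models were filtered with filterByExpr (21028 kept, 1548 on chromosome 11), scaled by TMM and fitted with the quasi-likelihood model with 1 mean per line to all 24 libraries (16 residual degrees of freedom). The p-values were adjusted by Benjamini-Hochberg over all tested models, and calls are at an adjusted p under 0.05. Class tests used counts summed per line (21184 models, 4 residual degrees of freedom). Index, blocks and models read in 1 parent are descriptions on linear CPM, computed in Python 3.11.15. Replicate plants were not alike within counting noise, with a chi-square per degree of freedom of at least 11.65. Intervals and floors (95%, 3 counts) cover counting error only. The scripts were tested on simulated data.

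Named models were those with the largest rise and fall among called chromosome 11 models whose higher group reached 5 CPM (2 per direction for parents and classes, 1 for each contrast of a line with a parent, 1 above and 1 below both parents). None overlapped another model in coordinates. Members, lists and named models were chosen with earlier results of these data known. Alternatives tried were DESeq2 1.42.0, RLE scaling, no filter, fewer libraries, other index scales, limits and windows, and a replicate block.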

Additional observations from a re-analysis of the deposited data

Results flagged for a closer look

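In 3 models named for the resistance classes, the difference between the parents (80-1 minus M6) departed from that between the classes of F2 lines (resistant minus susceptible) by the edgeR test of the difference between these effects. In g12583 the parental log2 difference was below the class difference by a value of -0.8481 (adjusted p = 0.00466, edgeR). In g15641 the parental log2 difference exceeded the class difference by 1.671 (adjusted p = 1.08e-05, edgeR), and in g15190 by 1.784 (adjusted p = 1.85e-08, edgeR). The test rests on the spread between plants, its models were picked for their class difference, and its contrasts speak only of these 8 lines.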

How the results depend on the processing

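Of 874 values recomputed for the comparisons, 741 stayed within the limits set for the reported value. Of 1061 for named models 1057 did, with none weaker or reversed. The other 4 belonged to the models named for the classes, which passed the threshold in line sums under DESeq2 alone. With only the libraries compared, EE501F2_641 differed in 256 models from M6 and 160 from 80-1, and EE501F2_093 in 434 from M6. Without line EE501F2_641 the 6 pairs left called 61 models, and DESeq2 called 35 in the class sums. The median index with parental differences of at least 2-fold was 0.717 in EE501F2_089 and 0.411 in EE501F2_093, and on the log2 scale 0.328 in EE501F2_093. The percentage of index models in blocks at the M6 level was, in EE501F2_089, 6.3 with a running median of 7 models, 2.7 with 21, 0.0 on the log2 scale and 4.4 from 2-fold. In EE501F2_516 it was 34.2 with 7 models, 44.6 with 21, 46.4 with limits of 0.3 and 0.7 and 33.3 with limits of 0.2 and 0.8. In EE501F2_093 it was 34.2 with 7 models, 32.4 with limits of 0.2 and 0.8, 30.2 on the log2 scale and 26.4 from 2-fold. In EE501F2_500 it was 40.5 with 7 models or with limits of 0.3 and 0.7, 33.8 with limits of 0.2 and 0.8, 30.6 on the log2 scale and 38.5 from 2-fold. The cause of these shifts was not tested.

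Leaving out 1 library at a time gave 177 to 368 models for EE501F2_093 against M6, 199 to 368 for EE501F2_099 against M6 and 8 to 22 in all 9 pairs. The median index ran from 0.357 to 0.397 in EE501F2_093, 0.25 to 0.306 in EE501F2_099 and 0.274 to 0.346 in EE501F2_516. The percentage at the M6 level ran from 2.5 to 8.9 in EE501F2_089, 30.9 to 36.3 in EE501F2_093, 35.5 to 45.8 in EE501F2_099, 33.9 to 43.6 in EE501F2_500, 34.1 to 44.9 in EE501F2_516 and 0.0 to 7.9 in EE501F2_641, the last without its plant 3. With a replicate block the parents differed in 628 models and all 9 pairs called 11. Same-numbered plants shared only a number: 17 of 84 pairs correlated above 0.1 and 6 of 24 libraries correlated best with their own number. In the block fit no count moved by over 1.5 times.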
